A study of Homo sapiens with 10 samples.

Results

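The comparison described here sets K562 cells treated with 5 µM I-CBP112 against cells treated with DMSO alone, both for 48 h. Its members were chosen by their labels. They are the 2 samples treated with 5 µM I-CBP112 and the 2 DMSO samples, 4 of the 10 samples of the series. The genes are those with a mean of at least 0.5 FPKM (fragments mapped to a gene, scaled by its transcript length and by the size of the library) over all 10 samples, with small RNA genes left out by name. This kept 12392 of the 23284 genes in the table. At the threshold, MGC16275 lay just inside with a mean of 0.5005 FPKM and ZIC1 just outside with 0.4999 FPKM. K562 is a human cell line grown from chronic myeloid leukemia in blast crisis. It carries the BCR-ABL1 fusion and expresses erythroid genes. The other samples of the series, 2 per group, were treated with 2 µM I-CBP112, 2 µM CBP30 or 5 µM CBP30. The question was how inhibitors of the CREBBP and EP300 bromodomains change gene expression in these cells. No group carried a genetic change that the others lacked, and all groups were the same cell line. The study's methods call the replicates biological. How the cultures were kept apart is not given in the labels, and p-values measure the spread between these samples.

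CREBBP and EP300 are lysine acetyltransferases that acetylate histones at enhancers and promoters and are recruited by transcription factors. Each has a bromodomain, a pocket that binds acetylated lysine. I-CBP112 and CBP30 are small molecules that occupy this pocket without blocking the catalytic domain. In erythroid cells, GATA1, TAL1, LMO2, LDB1 and KLF1 bind regulatory elements of globin, heme and red cell membrane genes, and MYC drives genes of ribosome production and growth.

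With 5 µM I-CBP112, 461 genes were lower and 543 genes were higher than with DMSO, 3.72% and 4.38% of the genes tested (limma on log2(FPKM + 1), Benjamini-Hochberg adjusted p under 0.05 over 12392 genes). Erythroid regulators, embryonic and fetal globins, red cell membrane genes, MYC and part of the ribosome biogenesis genes were among those that fell. Histone genes, immediate early and MAPK feedback genes, FN1 and CD24 were among those that rose. The changes were small. The median log2 fold change was -0.42 among the genes that fell, or 72.5% of the DMSO level, and 13 of them fell by more than 1 on the log2 scale. Among the genes that rose, the median was 0.46, or 157% of the DMSO level, and 56 rose by more than 1. Genes that fell had a median of 19.5 FPKM in DMSO, genes that rose a median of 4.82 FPKM, and all genes tested a median of 11.8 FPKM. Over all genes tested, 51.4% had a log2 fold change below 0. In every gene called, both treated samples lay beyond both DMSO samples. Over all genes tested, both treated samples lay below both DMSO samples in 34.5% and above them in 31.2%.

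The spread that entered these tests came from all 5 groups. The DMSO pair had a Pearson r of 0.9968 and the 5 µM I-CBP112 pair 0.9974 on the log2 scale, with median absolute differences of 0.0634 and 0.0567 between replicates. The pair treated with 2 µM CBP30 stood apart at 0.201. There, replicate 2 against replicate 1 moved with the length of the transcript (Spearman's rho of 0.612, taken over genes, which are not independent), and EEF1A1, a translation factor used by every cell, was listed at 0 in replicate 1 and at 6661 FPKM in replicate 2. Without that library, the same test called 1882 genes lower (15.2%) and 1624 higher (13.1%), and these included all 461 and all 543. Counts of list members given below without that library are to be read beside these shares. Leaving out any 1 of the 4 samples compared left 99 to 118 genes lower and 145 to 177 higher. Sums of FPKM were 611234 to 614878 in DMSO and 608004 to 609606 with 5 µM I-CBP112. The read depths are not in the table. The steps of low values in 454 genes put the relative depth of the 10 libraries between 0.945 and 1.05. It was 0.945 and 0.97 in DMSO and 1.03 and 1.05 with 5 µM I-CBP112, so both DMSO samples were somewhat shallower. What this difference did to the calls was not tested.

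**Figure D1:**
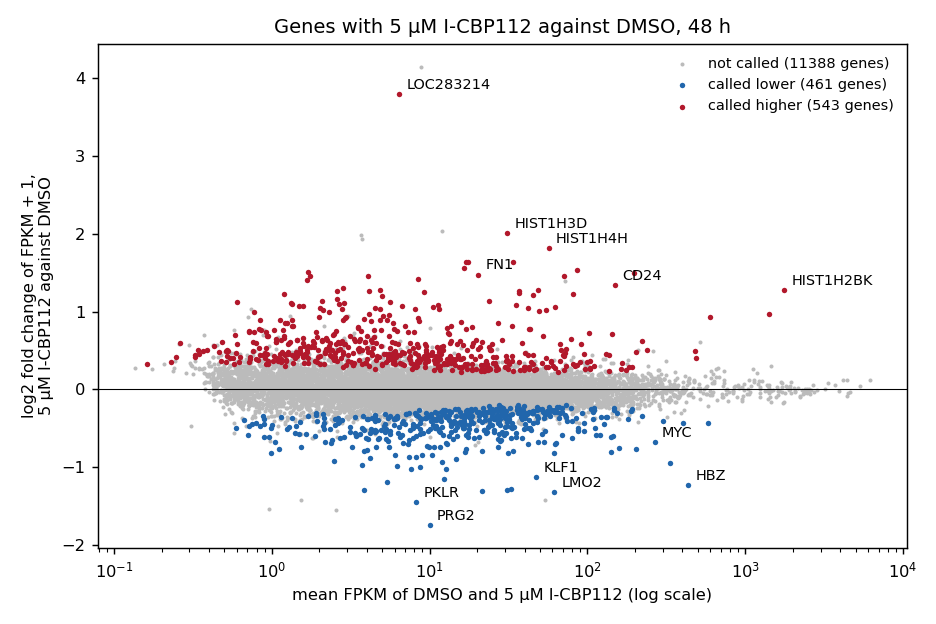
Log2 fold change of FPKM + 1 with 5 µM I-CBP112 against DMSO (vertical axis) by the mean FPKM of the 4 samples (horizontal axis, log scale), 1 point per gene. Blue points are the 461 genes called lower, red points the 543 called higher and grey points the rest, and the called genes lie on both sides of 0 at all but the highest expression levels. The grey point highest up is VTRNA2-1, listed at 0 in both DMSO samples and at 12.0 and 23.1 FPKM with I-CBP112 (adjusted p = 0.0876).

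The erythroid character of the cells was present in both groups. GATA1 stood at 170 and 171 FPKM in DMSO and at 139 and 130 FPKM with 5 µM I-CBP112. TAL1, its partner in erythroid complexes, had 17.4 FPKM in both DMSO samples against 17.5 and 17.9 FPKM, and the BCR and ABL1 genes of the fusion were detected in all 4 samples. Of 20 markers of lymphoid, stromal, endothelial and epithelial cells, 6 passed the filter on low values, and MS4A1, CDH5, KRT5 and KRT14 were listed at 0 in all 4 libraries. Their summed level was 78.2 and 80.2 FPKM in DMSO and 69.7 and 72.2 FPKM with I-CBP112. Without EPCAM and CD3D, which made up most of it, the sum was 3.45 and 3.69 against 4.52 and 5.04 FPKM. COL1A1, a collagen chain of stromal cells, was the 1 marker called by limma, from 0.520 and 0.442 FPKM to 1.02 and 0.930 FPKM (adjusted p = 0.0145). Without the library that stood apart, 1 of the 6 was called lower and 2 higher. In these bulk samples, fewer cells of a kind and less RNA per cell cannot be told apart.

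Sequences around annotated transcript starts are shown for some of the genes with the largest changes. Which start these cells used was not tested. The windows are from RefSeq (GRCh38.p14), cover 250 bases before to 50 bases after an annotated start, and are given for the first 3 genes in each direction for which a window was found. Capitals mark GATAA or its reverse complement TTATC, the core that GATA factors bind, and CACGTG, the E-box that MYC and MAX bind. TTATC and CACGTG can share 1 base. For the genes that fell, PKLR has 2 annotated starts.
PKLR, window at chr1:155301389-155301688, minus strand: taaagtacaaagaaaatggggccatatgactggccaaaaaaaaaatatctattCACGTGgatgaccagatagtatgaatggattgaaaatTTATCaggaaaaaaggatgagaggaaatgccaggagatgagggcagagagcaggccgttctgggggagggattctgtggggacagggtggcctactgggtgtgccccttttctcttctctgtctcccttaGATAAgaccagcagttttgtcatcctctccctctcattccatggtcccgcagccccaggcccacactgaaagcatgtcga
PKLR, window at chr1:155300903-155301202, minus strand: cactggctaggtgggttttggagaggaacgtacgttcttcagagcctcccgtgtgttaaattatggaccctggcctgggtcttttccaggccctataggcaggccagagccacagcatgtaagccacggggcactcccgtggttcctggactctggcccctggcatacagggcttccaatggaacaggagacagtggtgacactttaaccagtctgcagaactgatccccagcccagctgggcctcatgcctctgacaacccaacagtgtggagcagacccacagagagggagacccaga
S100P, window at chr4:6693628-6693927, plus strand: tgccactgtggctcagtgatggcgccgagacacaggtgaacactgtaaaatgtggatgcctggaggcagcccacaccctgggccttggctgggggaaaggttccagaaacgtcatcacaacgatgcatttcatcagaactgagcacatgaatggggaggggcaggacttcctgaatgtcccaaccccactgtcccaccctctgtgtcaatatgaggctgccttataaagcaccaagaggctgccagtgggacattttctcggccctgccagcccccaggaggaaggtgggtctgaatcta
SLC6A19, window at chr5:1201345-1201644, plus strand: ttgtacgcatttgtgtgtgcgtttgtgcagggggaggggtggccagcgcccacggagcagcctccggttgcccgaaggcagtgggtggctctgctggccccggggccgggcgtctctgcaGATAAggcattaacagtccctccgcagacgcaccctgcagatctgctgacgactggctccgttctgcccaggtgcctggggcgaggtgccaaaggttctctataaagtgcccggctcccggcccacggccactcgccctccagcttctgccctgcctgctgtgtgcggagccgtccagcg

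For the genes that rose, these are 3 histone genes of the H3, H4 and H2B families, and no window holds either motif. HIST1H3D has a further window that is not shown.
HIST1H3D (RefSeq H3C4), window at chr6:26197237-26197536, minus strand: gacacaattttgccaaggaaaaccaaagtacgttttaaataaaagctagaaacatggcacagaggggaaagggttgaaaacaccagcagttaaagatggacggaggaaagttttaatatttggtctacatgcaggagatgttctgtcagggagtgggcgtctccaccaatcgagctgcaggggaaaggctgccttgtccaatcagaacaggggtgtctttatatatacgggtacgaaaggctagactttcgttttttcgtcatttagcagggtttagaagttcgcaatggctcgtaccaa
HIST1H4H (RefSeq H4C8), window at chr6:26285485-26285784, minus strand: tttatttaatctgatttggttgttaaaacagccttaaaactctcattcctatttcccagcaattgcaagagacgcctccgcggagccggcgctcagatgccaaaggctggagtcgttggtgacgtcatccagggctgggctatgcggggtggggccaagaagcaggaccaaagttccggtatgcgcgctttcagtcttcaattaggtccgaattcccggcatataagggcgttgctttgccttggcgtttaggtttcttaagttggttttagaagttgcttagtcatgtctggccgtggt
HIST2H2BE (RefSeq H2BC21), window at chr1:149886633-149886932, minus strand: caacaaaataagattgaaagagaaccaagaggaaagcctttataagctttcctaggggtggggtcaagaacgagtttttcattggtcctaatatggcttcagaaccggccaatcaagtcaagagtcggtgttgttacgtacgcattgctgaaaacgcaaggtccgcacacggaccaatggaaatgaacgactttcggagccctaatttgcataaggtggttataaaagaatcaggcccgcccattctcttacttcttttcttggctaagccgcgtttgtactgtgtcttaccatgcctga

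The first PKLR window holds 2 GATAA matches and 1 CACGTG match, its second window none. In the S100P window neither motif was found, and the SLC6A19 window holds 1 GATAA match. Among the genes that fell, 338 had a window and 96 of these (28.4%) held GATAA on either strand in at least 1 window. The share was 19.6% among the 403 genes that rose and 18.9% among all 9542 genes tested that had a window. CACGTG was present for 63 of the 338 genes that fell (18.6%), 41 of the 403 that rose (10.2%) and 12.8% of all those tested. Over all 35116 windows of the table, the shares were 22.7% for GATAA and 7.3% for CACGTG. A gene with several starts had more chances of a match, and a match is only the presence of these letters.

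The erythroid transcription factors held the highest share of falls of any list examined, with 9 of 15 members called lower and none higher (median log2 fold change -0.34, against -0.01 over all genes tested). This list, like the others, was chosen with earlier results of these data known. LMO2, which bridges GATA1 and TAL1 in 1 complex (chromosome 11, 33880122 to 33913623, hg19), had 90.4 and 86.7 FPKM in DMSO and 34.9 and 34.7 FPKM with I-CBP112. The treated samples were 39.3% of the DMSO mean and closer to each other than the DMSO samples were (log2 fold change -1.32, SE 0.07, adjusted p = 4.48e-05). KLF1, the activator of adult globin and membrane genes (chromosome 19, 12995236 to 12998015, hg19), went from 68.8 and 61.9 FPKM to 29.8 and 29.0 FPKM (log2 fold change -1.12, SE 0.13, adjusted p = 0.00137). NFE2, which acts at the globin locus control region, fell to 61.5% of DMSO, GFI1B, a repressor needed for erythroid and megakaryocytic development, to 67.8%, and IKZF1 to 66.7%. Smaller falls were those of LDB1 (74.3%), GATA2 (74.9%), CBFA2T3 (80.4%) and TCF3 (82.6%).

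GATA1 itself did not pass the test. Its treated samples were below both DMSO samples, at 78.9% of the DMSO mean (log2 fold change -0.34, SE 0.10, adjusted p = 0.0648), and its adjusted p was 0.000636 without the library that stood apart. TAL1 had a log2 fold change of 0.02. MYB had the same value, RUNX1 0.12, ZFPM1 0.04 and LYL1 -0.05, none of them called. Without that library, 10 of the 15 factors were called lower, the same 9 and GATA1.

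HEMGN, a nuclear protein of blood precursors and a known target of GATA1, was not in that list. It had 44.4 and 44.1 FPKM in DMSO and 17.9 and 17.0 FPKM with I-CBP112, 39.5% of the DMSO mean (log2 fold change -1.29, SE 0.08, adjusted p = 6.68e-05).

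Of the globins, all 8 tested members had log2 fold changes below 0 (median -0.52), and 3 were called lower. HBZ, the embryonic zeta chain (chromosome 16, 192727 to 204502, hg19), had 630 and 589 FPKM in DMSO and 276 and 244 FPKM with I-CBP112, 42.6% of the DMSO mean (log2 fold change -1.23, SE 0.18, adjusted p = 0.00463). HBG2 and HBG1, the fetal gamma chains, fell to 51.8% and 58.7%. Their transcripts are nearly identical, so reads could have been split between them and their separate values are uncertain. HBE1, the embryonic epsilon chain, had 162 and 155 FPKM against 140 and 138 FPKM (log2 fold change -0.19, adjusted p = 0.394). Leaving out the library that stood apart, 6 of the 8 globins were called lower, HBE1 among them with an adjusted p of 0.00800.

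In heme synthesis, 3 of 14 members were lower and 1 was higher (median -0.19). PPOX, which oxidises protoporphyrinogen, fell to 64.2% of DMSO. ABCB10, a transporter of the mitochondrial inner membrane, fell to 82.3%. ALAD, the second enzyme of the pathway, rose from 8.35 and 8.35 FPKM to 11.2 and 11.0 FPKM (log2 fold change 0.37, SE 0.06, adjusted p = 0.00976). ALAS2, the erythroid form of the first enzyme, had a log2 fold change of -0.06 and was not called. After the library that stood apart was left out, 9 members were called lower and 1 higher.

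Among 13 genes of iron handling, 3 fell and none rose. SLC40A1, the iron exporter ferroportin, had 19.3 and 19.5 FPKM in DMSO and 9.88 and 10.0 FPKM with I-CBP112, 51.2% of the DMSO mean (adjusted p = 0.00106). TFR2, transferrin receptor 2, fell to 64.2% and STEAP3, the ferrireductase that works with the transferrin receptor, to 67.4%. When the library that stood apart was left out, 5 were lower. TFRC, the main transferrin receptor, had 154 and 162 FPKM against 129 and 128 FPKM (adjusted p = 0.0986). The storage proteins FTH1 and FTL had log2 fold changes of 0.09 and 0.08 and were not called. Differences between them and the genes that fell were not tested.

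In the red cell membrane and blood group list, 9 of 23 members fell and none rose. ADD2, beta adducin, had 8.20 and 7.76 FPKM in DMSO and 4.17 and 3.84 FPKM with I-CBP112, 50.2% of the DMSO mean (log2 fold change -0.84, SE 0.09, adjusted p = 0.000908). ICAM4, the Landsteiner-Wiener blood group protein, fell to 63.1%, ANK1, ankyrin, to 63.8%, and TMOD1, which caps actin filaments, to 68.6%. SPTB (beta spectrin), MPP1, ERMAP and RHAG fell to between 73.5% and 76.9%. The glycophorins GYPB (log2 fold change 0.22) and GYPC (-0.42, adjusted p = 0.056) were not called. Without the library that stood apart, 13 members were lower and 4 higher.

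PRG2, the major basic protein of eosinophil granules (chromosome 11, 57154253 to 57158123, hg19), had the largest fall of the whole comparison. It had 14.5 and 17.3 FPKM in DMSO and 4.71 and 3.43 FPKM with I-CBP112, 25.6% of the DMSO mean (log2 fold change -1.74, SE 0.14, adjusted p = 0.000241). MS4A3, a membrane protein of granulocyte precursors, fell from 45.1 and 48.7 FPKM to 18.0 and 19.5 FPKM, and S100P, a calcium-binding protein, from 30.2 and 32.2 FPKM to 12.8 and 11.2 FPKM. In the myeloid list, these 3 of 9 tested members fell and LYZ, lysozyme, rose from 38.0 and 38.4 FPKM to 52.1 and 52.1 FPKM (adjusted p = 0.00191). The factors SPI1 and CEBPA had log2 fold changes of 0.18 and 0.12 and were not called.

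PKLR, the pyruvate kinase of red cells and liver (chromosome 1, 155259084 to 155271229, hg19), fell from 12.5 and 12.4 FPKM to 4.09 and 3.77 FPKM (log2 fold change -1.45, SE 0.07, adjusted p = 1.86e-05). PKM2, the pyruvate kinase gene of most other tissues under the name used in the table, moved the other way, from 176 and 174 FPKM to 272 and 268 FPKM (log2 fold change 0.62, SE 0.10, adjusted p = 0.00721). Both genes separated the groups without overlap, as every called gene did. In the glycolysis list, HK1 and HK2, which phosphorylate glucose, fell to 73.4% and 77.4% of DMSO and PFKFB3 to 77.5%, while ENO2, the neuronal enolase, rose to 255%. In all, 3 of its 23 members fell and 2 rose, or 6 and 3 without the library that stood apart.

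The remaining large falls had varied roles. SLC6A19, a transporter of neutral amino acids, fell to 30.5% of DMSO, DYSF, a membrane repair protein, to 36.5%, and GRAP2, an adaptor of immune receptor signalling, to 41.7%. LOC388813, an uncharacterised gene, fell to 44.4%, SLC16A9, a transporter of the monocarboxylate family, to 45.0%, AQP10, a water and glycerol channel, to 45.9%, and PNMT, which makes adrenaline, to 46.4%. Only genes whose groups did not overlap were picked, so the separation of the groups in these 7 genes is no result.

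MYC had 338 and 320 FPKM in DMSO and 210 and 201 FPKM with I-CBP112, 62.4% of the DMSO mean (log2 fold change -0.68, SE 0.06, adjusted p = 0.000399). PVT1, the noncoding gene next to it, fell to 76.2% and MYCL1, a second member of the family, to 76.7%. All 12 tested members of the MYC and MAX network had log2 fold changes below 0 (median -0.13), and these 3 were called (5 without the library that stood apart). MAX, the partner of MYC, had a log2 fold change of -0.06.

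Ribosome biogenesis genes, many of them known targets of MYC, were below 0 in 32 of 34 cases with a median of -0.22, and 9 were called lower. MYBBP1A, a nucleolar protein, fell from 30.9 and 29.4 FPKM to 20.9 and 20.7 FPKM (log2 fold change -0.51, SE 0.10, adjusted p = 0.0130), NOLC1, a nucleolar chaperone, to 75.5% of DMSO, and NOP16 and GAR1, a nucleolar protein and a component of H/ACA particles, to 76.9% and 77.3%. NCL and NPM1, the most abundant nucleolar proteins, had log2 fold changes of -0.07 and -0.02 and were not called. Without the library that stood apart, 28 of the 34 were called lower and none higher. Cytosolic ribosomal proteins contrast with it. Of 81 tested, limma called 0 in either direction, 0 had an unadjusted p under 0.05, and the median log2 fold change was 0.00 (3 lower and 1 higher without that library).

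Of the DNA replication and mitosis genes, 2.33% and 2.5% were called higher, against 4.38% of all genes tested. None was called lower, against 3.72%. Of 43 DNA replication genes, RRM2, a subunit of ribonucleotide reductase, was the 1 gene called, at 125% of DMSO. Of 40 mitosis genes, SPC25, a kinetochore protein, was the 1 called, from 71.3 and 73.8 FPKM to 111 and 108 FPKM (adjusted p = 0.00113). Among 21 genes of the G1 phase, 3 rose and 2 fell. CDKN1A, the inhibitor p21, had 5.20 and 5.91 FPKM in DMSO and 12.0 and 10.7 FPKM with I-CBP112 (log2 fold change 0.91, SE 0.13, adjusted p = 0.00369). CDKN2D, another inhibitor of cyclin-dependent kinases, rose to 183% of DMSO and CCNE2, cyclin E2, to 136%, and CCND1, cyclin D1, fell to 59.4% and E2F5 to 80.3%. With the library that stood apart left out, 4 replication genes were lower and 9 higher, 2 mitosis genes lower and 9 higher, and 5 G1 genes lower and 6 higher. Over all genes tested, this fit called 15.2% lower and 13.1% higher.

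The targets of the compound showed no called change in their own transcripts. CREBBP had a log2 fold change of 0.00 and EP300 of -0.05. None of 13 lysine acetyltransferases was called by limma, and 0 had an unadjusted p under 0.05. None of 13 BET and P-TEFb genes was called (1 lower and 1 higher at an unadjusted p under 0.05), nor any of 8 HOXB genes (3 lower at an unadjusted p under 0.05). HDAC7, a class IIa deacetylase, was the 1 of 11 histone deacetylases called, from 34.0 and 31.1 FPKM to 23.1 and 23.8 FPKM (adjusted p = 0.00380). After the library that stood apart was left out, 2 acetyltransferases were lower, 2 BET and P-TEFb genes were lower and 2 higher, 3 HOXB genes were lower, and 2 deacetylases were lower and 1 higher. All genes tested had shares of 15.2% lower and 13.1% higher in that fit.

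**Figure D2:**
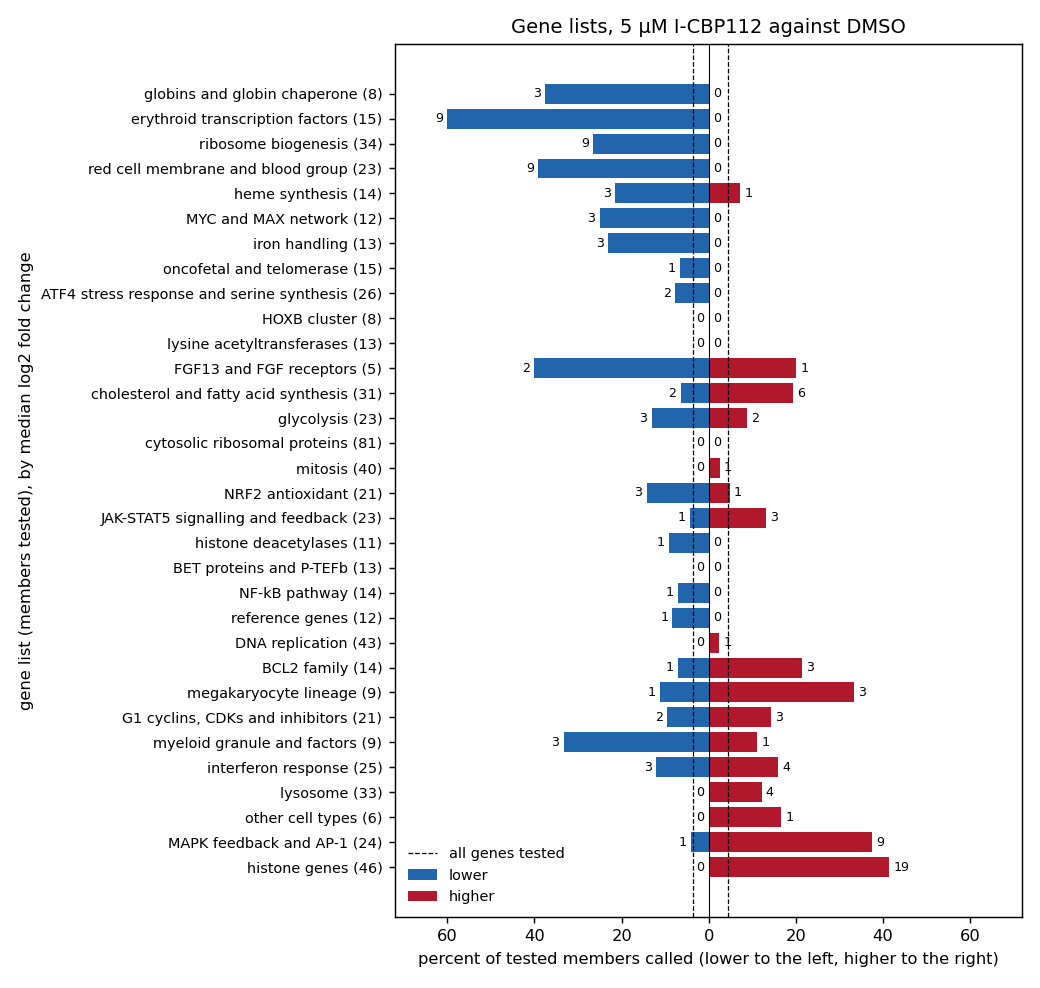
Percent of the tested members of each gene list called lower (blue, to the left) or higher (red, to the right) with 5 µM I-CBP112, ordered by median log2 fold change, with the number called beside each bar and the number tested in brackets. Dashed lines mark 3.72% lower and 4.38% higher over all genes tested. The erythroid factor bar is the longest to the left (9 of 15) and the histone bar the longest to the right (19 of 46). The histone genes were chosen after their values were seen, and the other lists with earlier results of these data known. Low histone genes could pass the filter through the treated samples.

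Histone genes made up 6 of the 15 largest rises, so all genes whose names in the table start with HIST were examined as a group, chosen after the values were seen. Of 46 tested, out of 73 in the table, 42 had log2 fold changes above 0 (median 0.54), 19 were called higher and 0 lower. The filter took the mean over all 10 samples, and 39 of the 46 were called higher with 5 µM CBP30. Low histone genes could thus pass through the treated samples, so these counts are a description. With a pseudocount of 0.1, HIST1H4B went from 1.13 to 3.67 and HIST1H4D from 1.51 to 3.25. With a mean of 5 FPKM needed, 24 were tested, 15 called higher and 0 lower. Their summed level was 2605 and 2511 FPKM in DMSO and 5840 and 5556 FPKM with I-CBP112. HIST1H2BK and HIST1H1C carried most of it, with 1047 and 1026 FPKM against 2544 and 2463 FPKM, and 977 and 927 FPKM against 1944 and 1801 FPKM. Poly(A)-selected libraries such as these capture mainly the polyadenylated forms of histone transcripts, since most histone mRNA made in S phase ends without a poly(A) tail. Several of these genes have nearly identical coding sequences, so the split of reads between copies is uncertain.

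HIST1H3D (chromosome 6, 26197012 to 26197514, hg19) had 10.9 and 12.7 FPKM in DMSO and 50.5 and 50.1 FPKM with I-CBP112 (log2 fold change 2.00, SE 0.17, adjusted p = 0.000325). HIST1H4H had 25.5 and 23.8 FPKM against 93.1 and 85.3 FPKM (log2 fold change 1.82, SE 0.07, adjusted p = 1.49e-05), and HIST2H2BE, which lies outside the chromosome 6 cluster on chromosome 1, had 15.2 and 16.8 FPKM against 53.4 and 50.4 FPKM (log2 fold change 1.64). In all 3 genes the treated samples were above both DMSO samples, as in every gene called higher. HIST1H2BJ rose to 293% of DMSO, HIST1H2AC to 283% and HIST1H2BD to 279%. OR2B6, an olfactory receptor gene, is the next gene tested beyond HIST1H2BO on chromosome 6, 63350 bases away, and rose from 7.67 and 8.31 FPKM to 23.9 and 30.3 FPKM (adjusted p = 0.000124). HIST1H1E was not called, with a log2 fold change of -0.17, and neither were 26 others of the 46. Without the library that stood apart, 24 were called higher and 0 lower.

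LOC283214, an uncharacterised gene, was listed at 0 in both DMSO samples and at 13.7 and 12.0 FPKM with 5 µM I-CBP112, and no fold is given against values of 0. It stood at 8.38 and 14.0 FPKM with 2 µM I-CBP112 and at 0 in both samples treated with 5 µM CBP30. It passed the filter on low values only through the samples treated with I-CBP112, so its values are a description and its place among the rises is no support for a difference. NRGN, a calmodulin-binding protein of neurons and platelets, rose from 8.19 and 7.33 FPKM to 26.7 and 25.8 FPKM (log2 fold change 1.64, SE 0.19, adjusted p = 0.00143). IGFL2, a secreted protein related to insulin-like growth factors, had 6.79 and 8.94 FPKM against 24.8 and 25.0 FPKM (log2 fold change 1.56, SE 0.13, adjusted p = 0.000255).

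Some genes of the cell surface and matrix were among the largest rises, while others, such as MS4A3 and ICAM4, fell. No list of such genes was tested. FN1, the matrix protein fibronectin (chromosome 2, 216225163 to 216300796, hg19), had 9.57 and 11.0 FPKM in DMSO and 30.5 and 30.1 FPKM with I-CBP112, 295% of the DMSO mean (adjusted p = 0.00182). CD24, a surface glycoprotein of immature cells, went from 82.0 and 86.5 FPKM to 219 and 209 FPKM (log2 fold change 1.34, SE 0.06, adjusted p = 1.49e-05). SLAMF6, a receptor of lymphocytes, rose to 308%, GALNT4, an enzyme of O-linked glycosylation, to 300% and ID3, an inhibitor of E-box binding factors, to 378% from a low level of 1.91 and 1.51 FPKM. In the megakaryocyte list, NRGN, the tetraspanin CD9 (185% of DMSO) and the collagen receptor GP6 (162%) rose and THBS1, thrombospondin, fell to 75.5%, while ITGA2B, the platelet integrin, had a log2 fold change of -0.26 (adjusted p = 0.079).

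Of 24 genes of MAPK feedback and AP-1, 9 rose and 1 fell (median 0.23). IER3, an early response gene, had 29.1 and 26.8 FPKM in DMSO and 69.0 and 68.5 FPKM with I-CBP112 (log2 fold change 1.27, SE 0.14, adjusted p = 0.00106). EGR1, an early growth response factor, rose from 75.4 and 78.2 FPKM to 132 and 123 FPKM (log2 fold change 0.72, SE 0.06, adjusted p = 0.000222), and EGR2 rose to 234% of DMSO from about 0.5 FPKM. FOS rose to 166%, the feedback phosphatases DUSP5 and DUSP4 to 159% and 155%, the feedback inhibitors SPRY4 and SPRY2 to 136% and 122%, and ETV5 to 131%. FOSL1 was the member that fell, to 65.9% (adjusted p = 0.045). Its call was lost with a pseudocount of 0.1 (adjusted p = 0.0688), with no filter (0.0932), with small RNA genes kept (0.0694), with median centring (0.0643) and with quantile normalization (0.0623). DUSP1, JUN and JUNB were not called, with log2 fold changes of -0.22, 0.11 and -0.02. In the fit without the library that stood apart, 14 rose and 3 fell.

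Receptors and cytokine signalling were mixed. FGFR1 had 7.19 and 7.13 FPKM in DMSO and 15.6 and 15.8 FPKM with I-CBP112 (log2 fold change 1.04, SE 0.06, adjusted p = 4.48e-05). FGFR3 fell to 56.3% of DMSO and FGF13, an intracellular FGF homologue, from 21.7 and 21.8 FPKM to 12.3 and 12.5 FPKM. Of 23 JAK-STAT genes, SOCS1, a feedback inhibitor, rose from 31.8 and 32.9 FPKM to 66.2 and 66.1 FPKM (adjusted p = 0.00676), SOCS2 rose to 122% and STAT3 to 124%, and EPOR, the erythropoietin receptor, fell to 62.6%. STAT5A and STAT5B had log2 fold changes of -0.17 and -0.15 and were not called. With the library that stood apart left out, 8 of the JAK-STAT genes were lower and 6 higher.

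Of 31 cholesterol and fatty acid genes, 6 rose, among them INSIG1, MSMO1, IDI1 and SQLE of the cholesterol branch at 117% to 130% of DMSO, and 2 fell, the fatty acid synthase FASN to 78.4% and the desaturase FADS1 to 69.6%. Of 33 lysosome genes, 4 rose and none fell, NPC2, a cholesterol transfer protein, from 19.3 and 18.7 FPKM to 36.2 and 33.8 FPKM, TFEB, a regulator of lysosome genes, to 177%, and CTSB and GM2A to 129% each. Of 26 genes of the ATF4 response, VEGFA and SLC6A9 fell, to 80.5% and 75.0%, and ATF4 had a log2 fold change of -0.02. The interferon list had 4 rises (IFI6, HLA-C, HLA-E, GBP2) and 3 falls (IFIT2, IFIT3, IFITM1) among 25 members. IFI6, a mitochondrial protein induced by interferon, rose from 2.61 and 2.53 FPKM to 5.48 and 7.44 FPKM (log2 fold change 1.05, SE 0.24, adjusted p = 0.0292), and IFIT2 and GBP2 stood near 1 FPKM or below. Without the library that stood apart, the lower and higher calls were 6 and 10 in the cholesterol and fatty acid list, 6 and 12 among lysosome genes, 9 and 3 in the ATF4 list and 4 and 8 in the interferon list. That fit called 15.2% of all genes tested lower and 13.1% higher.

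In the BCL2 family, BCL2L1, PMAIP1 and BMF rose to between 123% and 125% of DMSO and BCL2L13 fell to 85.2%, 4 of 14 members. In the NRF2 list of 21, NFE2L2 rose to 120% and SRXN1, SLC48A1 and ABCC4 fell to between 71.4% and 80.1%. TNFAIP3 was the 1 of 14 NF-kB genes called, at 50.5% of DMSO from 1.88 and 2.08 FPKM. TERT, the catalytic subunit of telomerase, was the 1 of 15 oncofetal and telomerase genes called, from 3.03 and 3.13 FPKM to 2.15 and 2.16 FPKM. When the library that stood apart was left out, the lower and higher calls were 2 and 6 in the BCL2 family, 6 and 4 in the NRF2 list, 2 and 4 among NF-kB genes and 7 and 1 among oncofetal and telomerase genes. The shares over all genes tested were then 15.2% lower and 13.1% higher.

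The 2 µM dose of the same compound gives a direct comparison of doses. Between 5 µM and 2 µM I-CBP112, limma called 0 genes lower and 3 higher (0.0242% of the genes tested), with 314 lower and 394 higher at an unadjusted p under 0.05. The 3 genes were HIST1H4H (log2 difference 0.76, SE 0.07), HIST2H2BE (0.68, SE 0.07) and HIST1H2BC (0.50, SE 0.05), each with an adjusted p of 0.0299. At 2 µM, HIST1H4H stood at 52.3 and 52.2 FPKM, between the DMSO and the 5 µM samples. LMO2 had 48.5 and 48.3 FPKM at 2 µM, a log2 difference of -0.46 (SE 0.07, adjusted p = 0.165) to 5 µM, and MYC 241 and 231 FPKM, a difference of -0.20 (SE 0.06, adjusted p = 0.656). For HBG2 the 2 doses had nearly the same values, with 219 and 248 FPKM at 2 µM and a difference of -0.04 (SE 0.18). A missed threshold does not show that the doses act alike. In the fit without the library that stood apart, 5 µM gave lower values than 2 µM for 65 genes (0.525%) and higher values for 87 genes (0.702%).

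At the matched dose of 5 µM, CBP30 and I-CBP112 were compared directly, the 1 pair of compounds that could be set side by side at this dose. The study describes I-CBP112 as less potent, and whether equal doses inhibit CREBBP and EP300 equally was not tested. It chose 2 µM CBP30, not 5 µM, as a dose unlikely to affect the BET proteins. CBP30 gave lower values than I-CBP112 for 2396 genes (19.3%) and higher values for 1842 genes (14.9%), or 3834 (30.9%) and 3220 (26%) without the library that stood apart. Both comparisons use the I-CBP112 samples, so the values are given side by side. LMO2 stood at 8.23 and 7.69 FPKM with CBP30, a log2 difference of -2.00 from I-CBP112, S100P at 0.225 and 0.482 FPKM (-3.27), MS4A3 at 2.29 and 1.98 FPKM (-2.65) and MYC at 81.7 and 80.9 FPKM (-1.32), each past the threshold. GATA1 stood at 53.5 and 52.7 FPKM with CBP30. Of the 15 genes with the largest falls, LOC388813 was the 1 not called between the compounds, with 4.60 and 4.66 FPKM with CBP30 (difference -0.01, adjusted p = 0.97). Among the rises, HIST1H4H reached 338 and 329 FPKM with CBP30 and CD24 435 and 435 FPKM, while NRGN (34.7 and 34.7 FPKM, adjusted p = 0.14) and GALNT4 (9.82 and 7.37 FPKM, adjusted p = 0.23) were not called between the compounds.

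Some genes responded more to I-CBP112 than to CBP30 at 5 µM, and these were chosen after their values were seen. IGFL2 stood at 11.1 and 10.7 FPKM with CBP30 against 24.8 and 25.0 FPKM with I-CBP112 (log2 difference -1.13, adjusted p = 0.00034), although 2 µM CBP30 gave higher values than either. EGR1 stood at 99.5 and 98.8 FPKM with CBP30 (difference -0.36, adjusted p = 0.0019). FOXA2, a forkhead factor of endoderm, had 3.21 and 3.54 FPKM in DMSO, 6.66 and 6.19 FPKM with I-CBP112 and 3.43 and 3.05 FPKM with CBP30 (difference -0.81, adjusted p = 0.00020), and ZFP42, a zinc finger protein of stem cells, 12.1 and 12.4, 22.6 and 20.9, and 12.0 and 11.6 FPKM in that order (difference -0.82).

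A further 11 genes were called in opposite directions against DMSO with the 2 compounds at 5 µM, also chosen after their values were seen. CBP30 at this dose changed many more genes against DMSO, with 27% of the genes tested called lower and 22.7% higher. FCGR2A, a receptor for immunoglobulin G, had 37.9 and 39.6 FPKM in DMSO, 50.9 and 48.1 FPKM with I-CBP112 and 17.8 and 17.0 FPKM with CBP30 (log2 difference between compounds -1.46). FEV, an ETS family factor, had 10.2 and 9.06 FPKM in DMSO, 16.8 and 16.5 FPKM with I-CBP112 and 5.45 and 4.86 FPKM with CBP30. ANXA3, FABP6, GP6, IL18R1, LOC388553, P2RX5 and TMEM158 followed the same order. ECM1, an extracellular matrix protein, had 11.7 and 11.7 FPKM in DMSO, 8.18 and 7.42 FPKM with I-CBP112 and 16.5 and 17.1 FPKM with CBP30 (difference 1.02), and CCDC69 did likewise. In all 11 genes the compounds also differed past the threshold in the direct test. That follows largely from choosing genes called in opposite directions against the same DMSO samples, so it adds no support.

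**Figure D3:**
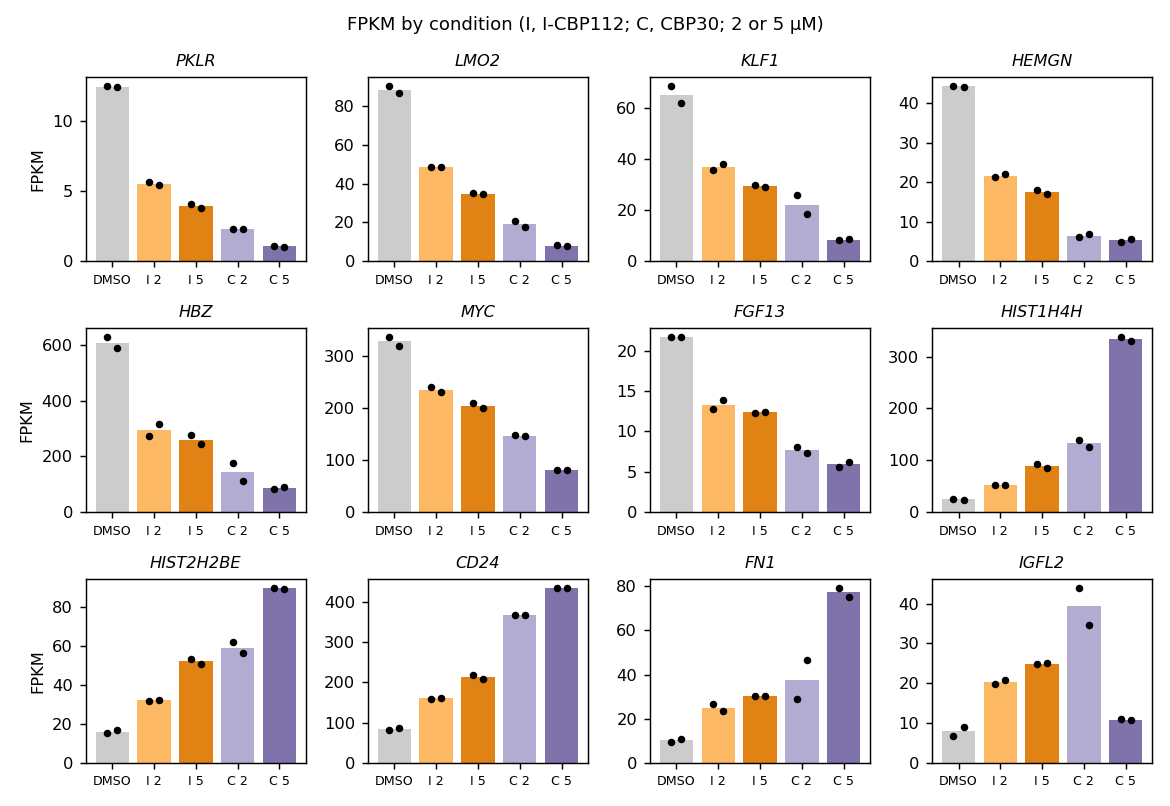
FPKM (vertical axes, each starting at 0) of 12 genes in DMSO, in 2 and 5 µM I-CBP112 (I 2, I 5) and in 2 and 5 µM CBP30 (C 2, C 5), with bars at the mean of 2 samples and points for the samples. The erythroid genes, MYC and FGF13 step down from DMSO through I-CBP112 to CBP30, the histone genes, CD24 and FN1 step up, and IGFL2 is higher with 5 µM I-CBP112 than with 5 µM CBP30.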

How the data were processed

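Poly(A)-selected, stranded libraries of K562 cells were sequenced as single 50-base reads by the authors, 2 samples per group. The submitters' processing notes name FastQC, TopHat2 2.0.10, Bowtie 1.0.0, SAMtools 0.1.19, Cufflinks 2.2.1 and Cuffnorm, with hg19. The gene annotation is not given in the sources used here. The deposited values are FPKM per gene, normalized across libraries by the authors, and read counts are not in the table. Whether counting used strand is not stated, so antisense and overlapping genes may share reads.

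Groups came from the labels. FPKM were transformed to log2(FPKM + 1), which understates changes of low genes, and fitted with limma 3.58.1 (R 4.3.3, empirical Bayes with a trend) in 1 model of 5 groups, with Benjamini-Hochberg adjustment over 12392 genes at 0.05. Of the names left out as small RNA genes, 396 had passed the filter, 5 of them host genes. Percent of DMSO is the ratio of mean FPKM. Genes named are the 15 largest falls and rises among called genes that reached a mean of 5 FPKM in 1 of the groups and whose groups did not overlap, and members of 31 gene lists, to which the histone genes were added after their values were seen. The comparison and the lists were chosen with earlier results of these data known. The test was first checked on simulated data. Promoter windows were matched by symbol or by a unique older symbol that is not in current use. Figures were drawn with Python 3.11.15 and matplotlib 3.10.9. Alternatives were another pseudocount, filters, scalings, trends, sample sets, a replicate block, removal of a length trend and leaving out each sample. Some members of the lists, though counted, are not reported here by name.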

Additional observations from a re-analysis of the deposited data

How the results depend on the processing

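No called gene that is named or listed changed direction under any setting: under the alternatives, 1890 of their values kept their side of the threshold, 413 lost it and 0 reversed, most of the losses when 1 of the 4 samples was left out. Most settings could not reverse a direction, because in every called gene both treated samples lay beyond both DMSO samples. The lack of reversals is therefore no support. Counts of genes lower and higher with 5 µM I-CBP112 than with DMSO (461 and 543) were 1798 and 1524 with only the groups compared, 1882 and 1624 without CBP30 2 µM replicate 1, 863 and 907 with the length trend removed, 813 and 866 with that and the replicate block, and 314 higher when genes needed a mean of 5 FPKM. Leaving out 1 sample of the comparison, whose lone partner is assumed to vary like the other groups, gave 99 to 118 lower and 145 to 177 higher. For 5 µM CBP30 against 5 µM I-CBP112 (2396 lower and 1842 higher), the counts were 3921 and 3355 with only the groups compared, 3834 and 3220 without CBP30 2 µM replicate 1, and 1242 to 1356 and 790 to 867 with 1 sample left out. For 5 µM against 2 µM I-CBP112 (0 lower and 3 higher), they were 8 and 21, and 65 and 87, in the same settings, 1 and 9 with the length trend removed, with or without the block, 1 and 5 with no filter, 1 and 7 with small RNA genes kept, 6 higher with quantile normalization, 0 higher with median centring or without the trend, and 0 to 1 higher with 1 sample left out. The causes were not tested. The labels do not say whether replicate numbers pair the samples. Deviations of same-numbered samples in DMSO and 5 µM I-CBP112 had a correlation of -0.0148, and over all pairs of groups -0.283 to 0.154. Values this low cannot decide it, since a small shared effect could also give them. With the replicate block, the counts were 382 lower and 489 higher against DMSO and 1 higher between doses, where the correlation was -0.14. A crossed pairing of the doses, added after the data were seen, also gave 0 lower and 1 higher. Depth behind single values is unknown, and which size of change 2 samples per group can miss in low genes was not tested.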

Other observations

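Most genes called had no called neighbour, but a larger share had one than among all genes tested, a difference that was not tested. Ordered along hg19 among the genes tested, 64 of the 439 genes called lower (14.6%) had a neighbour that was also called lower, while 7.3% of all 11771 genes with a position had such a neighbour. Of the genes called higher, 16.5% had a neighbour called higher, and 15.9% after histone genes were left out, against 8.7% of all genes. Neighbours that fell included the paralogs MS4A3 and MS4A4A (log2 fold changes -1.28 and -0.87), DLK1 and MEG3, an imprinted pair on chromosome 14 (-0.66 and -0.59), the receptor phosphatases PTPRB and PTPRR (-0.74 and -0.85), IFIT2 and IFIT3 (-0.47 and -0.40), and SLC6A19 and TERT (-1.30 and -0.37).

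Neighbours that rose included FOXA2 and the noncoding gene LINC00261 on chromosome 20 (0.76 and 0.78), ZFP42 and TRIML2 on chromosome 4 (0.78 and 1.26), TRIM6 and TRIM34 (0.81 and 0.64), EGR1 and REEP2 (0.72 and 1.23), and the interferon genes CMPK2 and RSAD2 (0.43 and 0.88). Some of these pairs overlap or are similar in sequence, and such genes can share reads. The pairs were picked after their values were seen, and the part of shared reads in these counts was not tested.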
